A study of Homo sapiens with 7 samples.

Results

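The genes described are 10 immediate early transcription factor genes and near relatives in HT1080, a fibrosarcoma cell line of human origin: FOS, FOSB, FOSL1 and FOSL2 of the FOS family, JUN, JUNB and JUND of the JUN family, the zinc finger factors EGR1 and EGR3, and IER2. They were taken by name, and all 22 probe sets that the array's annotation assigns to a single one of them were used. They are 10 of the 19775 genes on the array. Each of 7 cultures was read on 1 array. One compound was present for 2 h in each of 4 cultures: catechin (11.25 ng/ml), epicatechin or taxifolin (6.25 ng/ml each), or resveratrol (2195 ng/ml). The other 2 treated cultures had 5% control serum or 5% pycnogenol-positive serum (from patients given pycnogenol, a pine bark extract) for 2 h, and the last was untreated. The cells had been grown with fetal bovine serum, and the labels do not say whether the fresh medium held it, whether the untreated culture had its medium changed, or how many donors gave the test serum.

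Immediate early genes are switched on by growth factors and stress without new protein synthesis. FOS proteins pair with JUN proteins through leucine zippers to form AP-1, which binds DNA and drives genes of proliferation, proteolysis and invasion, while JUN proteins can also pair among themselves. The FOS gene and EGR1 are textbook targets of serum response factor (SRF) and its ETS partners such as ELK1, which MAP kinases phosphorylate. Their transcripts are short-lived, and the first wave after serum is usually over within a few hours.

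There was 1 array per condition, so no value carries a replicate error and no test was possible. All values are signals computed by the authors with MAS5, on a linear scale whose zero is not calibrated, and signals of different probe sets were not compared with each other. A difference is the log2 signal of the first array minus that of the second, after signals under 34.9 were raised to that floor, and a gene was counted as past 2-fold when the difference was at least 1 in size. A gene was compared when its mean log2 signal over the 7 arrays was at least 8.07 (a signal of 269), which 9888 genes were. Of the 10 genes, 7 passed, and FOS, FOSB and EGR3 did not. The ratio of the 3′ to the 5′ control probe set of ACTB, a sign of RNA or labelling quality, ran from 2.40 in the untreated culture to 4.02 with epicatechin, and was 2.55 with control serum and 2.82 with pycnogenol serum. Of 10 mesenchymal markers 9 passed the filter, with vimentin (VIM) between 46701 and 50229, while the epithelial adhesion genes EPCAM and CDH1 reached at most 63.8 and 88.5, although the keratin genes KRT8 and KRT18 passed. Of 7 blood cell markers measured, only HBB passed, and the summed signal of that list was 571 in the untreated culture, 629 to 729 with the compounds, 774 with control serum and 835 with pycnogenol serum. The 5 endothelial markers were all below the filter, with sums of 331 to 501. The part of these markers and of RNA quality in the results was not tested.

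**Figure D1:**
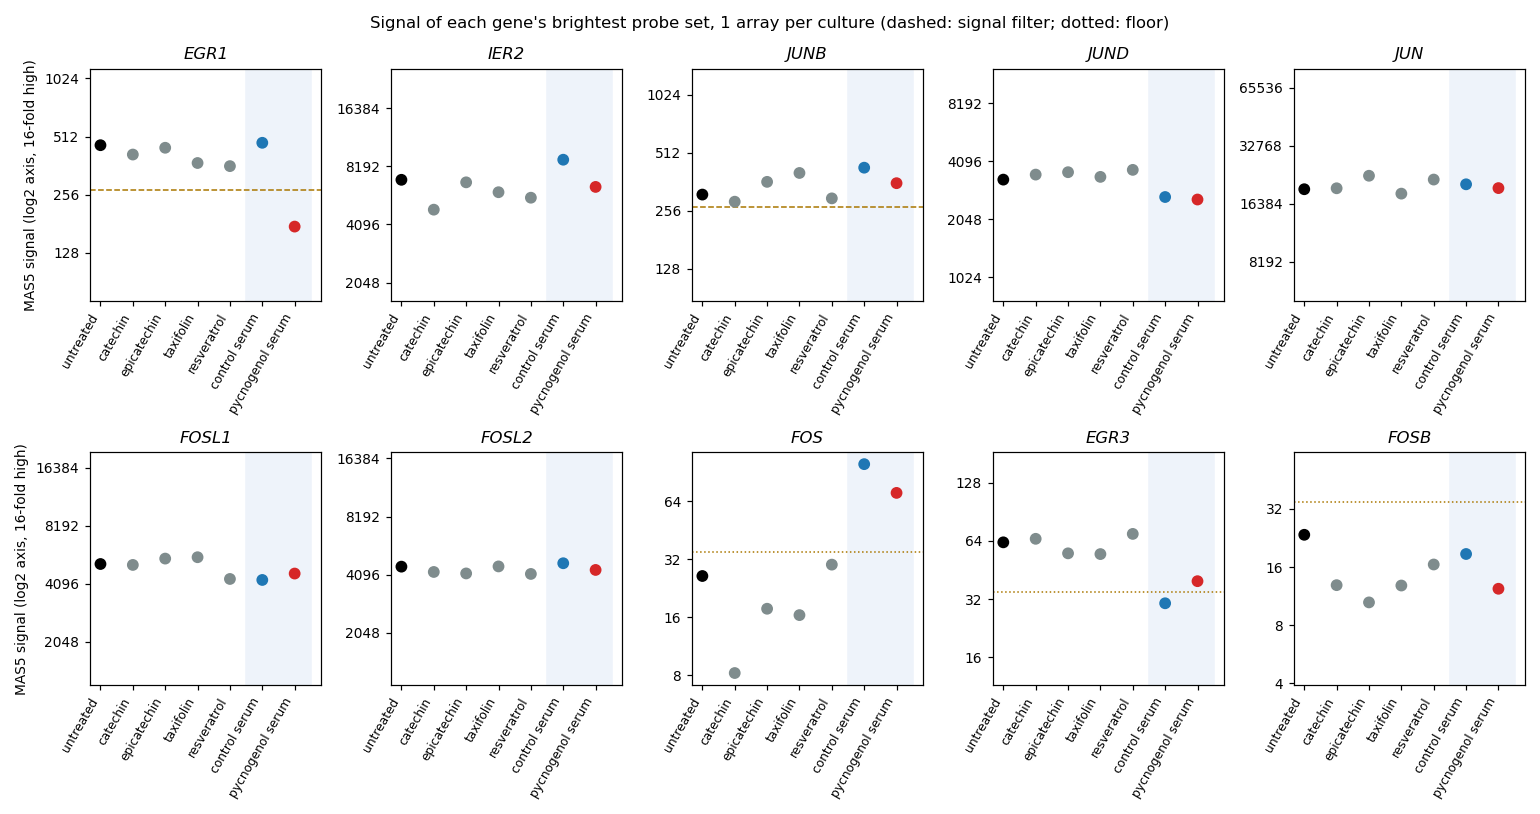
Signal of the brightest probe set of each of the 10 genes (vertical log2 axis spanning 16-fold in every panel) in the 7 arrays, 1 point per array, with the untreated culture in black, the 4 compounds in grey, control serum in blue and pycnogenol serum in red. EGR1 is at 475 with control serum and at 175 with pycnogenol serum, below the dashed signal filter at 269, while the other 6 genes above the filter stay within a 2-fold band.

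EGR1 was the gene that stood out. It encodes a zinc finger factor induced within minutes by growth factors and injury. Its signal was 462 in the untreated culture, 413 with catechin, 448 with epicatechin, 373 with taxifolin, 360 with resveratrol, 475 with control serum and 175 with pycnogenol serum. The culture with pycnogenol serum was thus lower than every other one, and the remaining 6 lay close together. EGR1 differed by -1.44 (log2) between pycnogenol and control serum, a 2.72-fold lower signal, and by -1.40 between pycnogenol serum and the untreated culture. Over all genes compared, 0.536% were past 2-fold in the first of these comparisons and 2.24% in the second, and 0.152% of genes had a difference between the serum arrays larger in size than that of EGR1. The pycnogenol serum signal lay 1.04 below the lowest of the 5 arrays without test serum, where 0.587% of genes lay at least 2-fold below that lowest value. A signal of 175 is under the filter, which is the median gene mean and not a limit of background. It lies above the 2.22 to 113 of 3 control probe sets without a human target. No detection calls were used, so whether it is above background was not established and the size of the difference is uncertain.

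The 3 probe sets of EGR1 did not give the same size. The second read 129 in the untreated culture, 117 with control serum and 100.1 with pycnogenol serum, and its values with the compounds ran from 94.0 to 149.6, so pycnogenol serum was inside the range of the others. The third read 82.4, 84.0 and 55.2 in the same order, and 55.6 with catechin, 13.2 with epicatechin, 44.7 with taxifolin and 36.7 with resveratrol. On neither of these was pycnogenol serum the lowest array, and on the third it lay above 3 of the 4 compounds. Between the serum arrays they differed by -0.23 and -0.61, the same direction as the first but short of 2-fold, and both had means under the filter. With the mean of all 3 probe sets EGR1 differed by -0.76 between the serum arrays and its mean no longer passed the filter.

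By profile, 684 genes outside the set spanned at least 2-fold over the 7 arrays and passed the filter. The 3 closest to EGR1, by the root mean square difference of log2 profiles centred on their own means, were ELAPOR2 at 0.15, the phospholipase gene PLCB1 at 0.16 and TSC22D3, a glucocorticoid-induced leucine zipper gene, at 0.18. ELAPOR2 read 602 with control serum, 236 with pycnogenol serum and 521 to 586 in the other 5 cultures. PLCB1 read 451 with control serum, 232 with pycnogenol serum and 383 to 613 elsewhere. TSC22D3 read 1595 with control serum, 562 with pycnogenol serum and 1183 to 1420 elsewhere. In each of these genes pycnogenol serum was the lowest array. The likeness rests on that array, and it is a description over 7 single arrays.

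**Figure D2:**
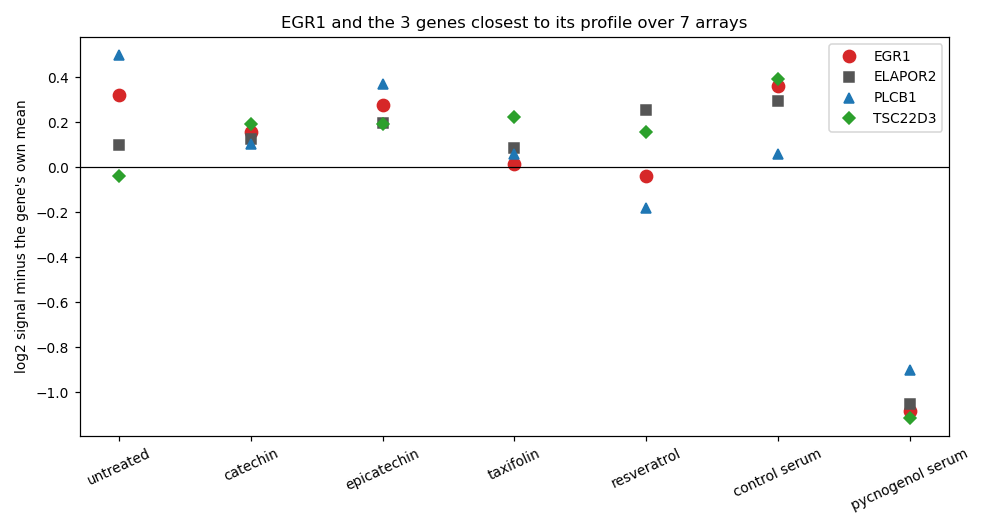
log2 signal of EGR1 and of the 3 genes with the closest profile, each minus its own mean over the 7 arrays (vertical axis), by culture (horizontal axis), 1 point per array. In all 4 genes the lowest point is pycnogenol serum, at 175 for EGR1 and 562 for TSC22D3 on the signal scale.

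EGR3, a zinc finger relative of EGR1, did not pass the filter. Its single probe set read 63.0 in the untreated culture, 65.7 with catechin, 55.2 with epicatechin, 54.7 with taxifolin, 69.6 with resveratrol, 30.4 with control serum and 39.6 with pycnogenol serum. The serum arrays were the lowest, opposite to FOS. Of the genes compared, 16.1% had both serum arrays below the other 5. All 7 EGR3 signals lie inside the range of probe sets without a human target. The 3 control probe sets for a bacterial tryptophan gene that human cells lack ran from 2.22 to 113 over the arrays. Of the EGR corepressors, NAB1 passed the filter and read 1944 in the untreated culture, 1994 with control serum, 2064 with pycnogenol serum and 2514 with catechin, its highest value. NAB2 did not pass.

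IER2 encodes a small nuclear protein of the early growth factor response. Its signal was 6980 in the untreated culture, 4887 with catechin, 6772 with epicatechin, 6018 with taxifolin, 5636 with resveratrol, 8871 with control serum and 6411 with pycnogenol serum. Control serum was above every other culture, and catechin below every other. Pycnogenol serum lay inside the range of the 5 cultures without test serum. IER2 differed by 0.35 between control serum and the untreated culture and by -0.47 between the serum arrays, where 7.95% of genes differed more. It did not reach 2-fold, and the 5 cultures without test serum alone spanned 0.51, against a median span of 0.32 over all genes compared.

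Among the FOS family, FOSL1 and FOSL2 were well above the filter. FOSL1 (FRA-1), an AP-1 subunit often abundant in invasive tumour cells, read 5193 in the untreated culture, 5136 with catechin, 5540 with epicatechin, 5631 with taxifolin, 4344 with resveratrol, 4293 with control serum and 4634 with pycnogenol serum. The serum and resveratrol cultures were the low ones, and the difference of control serum from untreated was -0.27. FOSL2 (FRA-2), its close relative, read between 4127 with resveratrol and 4689 with control serum on its brightest probe set, the smallest span of the 7 genes at 0.18. A further FOSL2 probe set read 4106 in the untreated culture, 4320 with control serum and 3233 with pycnogenol serum, with the compounds between 3286 and 3889. On that probe set pycnogenol serum was again the lowest array, and the difference between the serum arrays was -0.42. Another, with a mean just above the filter, read 160 with catechin, 373 with control serum and 345 with pycnogenol serum. The remaining cultures read 254 to 292 on it, so both serum arrays were above the other 5, and its span was 1.22. Over the genes compared, 13.5% had both serum arrays above the other 5. The pattern for FOSL2 thus depends on the probe set. All 5 FOSL2 probe sets lay below 0 in that comparison, from -0.068 to -0.42.

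FOS and FOSB themselves did not pass the filter, and whether they were above background was not established. FOS, the founding member of the family, read 26.2 in the untreated culture, 8.23 with catechin, 17.7 with epicatechin, 16.4 with taxifolin, 30.04 with resveratrol, 99.7 with control serum and 70.7 with pycnogenol serum. Both serum arrays were higher than the other 5, without overlap, a pattern that 13.5% of the genes compared showed. The floored difference of control serum from untreated was 1.52, but it was 0.38 with the floor at the 40th percentile of all signals, so its size follows the floor. All 7 FOS signals also lie inside the 2.22 to 113 of the control probe sets above, so no level of FOS was established. FOSB read 10.5 to 23.5 in all 7 arrays, under the floor throughout, and has no difference to report.

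In the JUN family, JUND was lower in both serum arrays on its brightest probe set. JUND is the broadly expressed JUN protein and is often found to restrain growth. It read 3288 in the untreated culture, 3491 with catechin, 3592 with epicatechin, 3397 with taxifolin, 3694 with resveratrol, 2671 with control serum and 2593 with pycnogenol serum. The serum arrays did not overlap the other 5, with differences of -0.30 and -0.34 from the untreated culture and of -0.043 from each other. By the brightest probe sets, JUND was the single gene of the 7 with both serum arrays on the same side of the other 5. The background is large, since 16.1% of genes had both serum arrays below the 5 and 13.5% had both above. The 3 other JUND probe sets were under the filter and scattered, one of them from 5.28 to 104. With the mean of all 4, control serum lay inside the range of the other 5 and pycnogenol serum below it.

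JUNB, an AP-1 subunit that can oppose JUN, read 310.3 in the untreated culture, 285 with catechin, 361 with epicatechin, 402 with taxifolin, 297 with resveratrol, 428 with control serum and 355 with pycnogenol serum. Control serum was highest, though taxifolin came close to it. JUNB differed by 0.46 between control serum and untreated, the largest such difference of the 7 genes, and by -0.27 between the serum arrays. These signals lie only slightly above the filter.

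JUN, the main partner of FOS proteins, was read by 4 probe sets that disagreed. The brightest was nearly flat, from 18512 with taxifolin to 22916 with epicatechin, with 19510 in the untreated culture, 20692 with control serum and 19777 with pycnogenol serum. On it the control serum difference was 0.085. The other 3 gave -0.54, -0.28 and -0.57 for the same comparison. One of them read 7493 in the untreated culture, 7604 to 7918 with the compounds, 6160 with control serum and 6859 with pycnogenol serum. Both serum arrays were thus lowest on it, as they were for 16.1% of the genes compared. Another read 2573 in the untreated culture and 1718 to 1924 in all 6 treated ones, so that there the untreated array stood apart. The last read 1911 untreated, 1289 with control serum, 1550 with pycnogenol serum and 1231 with resveratrol, its lowest value. Between the serum arrays these 3 gave 0.12, 0.15 and 0.27, and the brightest gave -0.065, so the direction for JUN depends on the probe set.

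**Figure D3:**
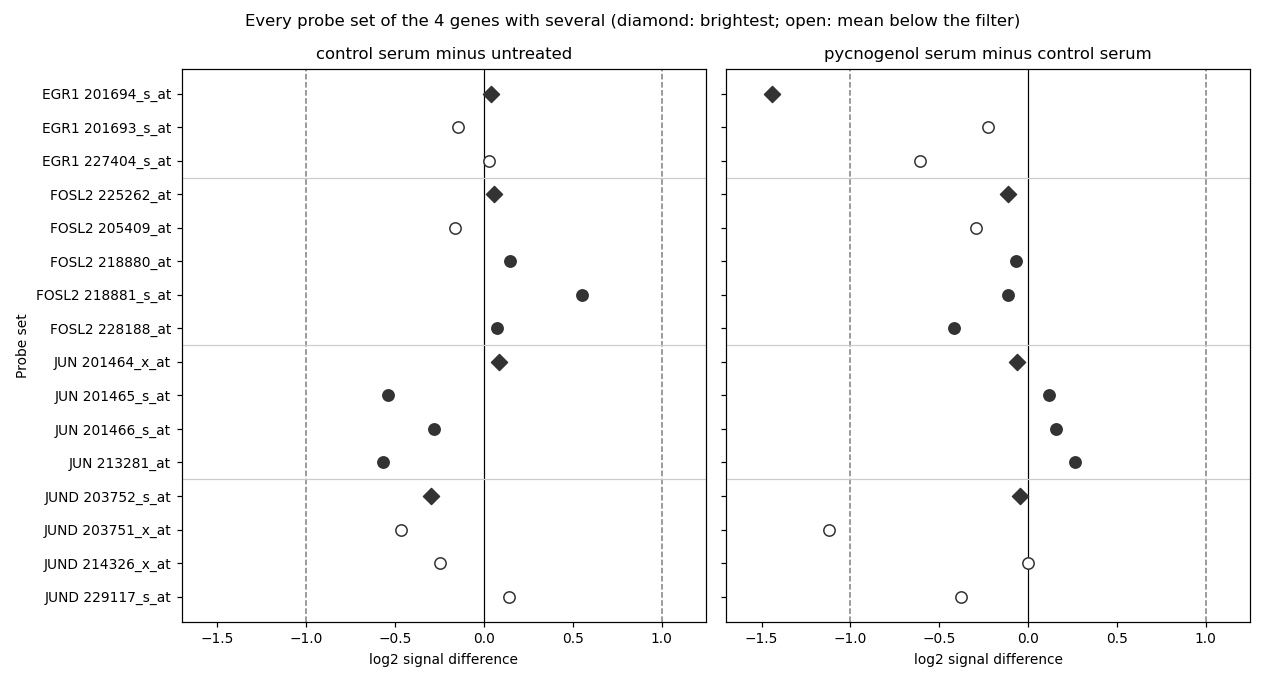
log2 signal difference (horizontal axis) of every probe set of EGR1, FOSL2, JUN and JUND (vertical axis), with control serum against untreated on the left and pycnogenol serum against control serum on the right. Diamonds mark the brightest probe set of a gene, and open symbols have a mean below the filter. The JUN diamond is at 0.085 on the left while its other 3 probe sets are at or below -0.28, and the EGR1 diamond is at -1.44 on the right.

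Counted over the 7 genes, none was past 2-fold with control serum against untreated, where 1.2% of all genes were. The median difference was 0.059, against 0.0076 over all genes, with 5 genes above 0 and 2 below, where 48.7% of all genes lay below. Between pycnogenol and control serum 1 of 7, EGR1, was past 2-fold, where 0.536% of all genes were. Below 0 lay 6 of 7, against 48.4% of all genes, with a median of -0.12, against 0.0082 over all genes. Among the 6, JUN at -0.065 and JUND at -0.043 were close to 0. Of the 13 probe sets above the filter, 9 lay below 0 and 4 above in that comparison, the 4 being 3 of JUN and that of FOSL1. Between pycnogenol serum and untreated 1 of 7 was past 2-fold, again EGR1, where 2.24% of all genes were. There 2 of the 7 lay above 0 and 5 below, where 47.5% of all genes lay below. The median was -0.12, against 0.017 over all genes. These comparisons share arrays, so they are not separate evidence.

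**Figure D4:**
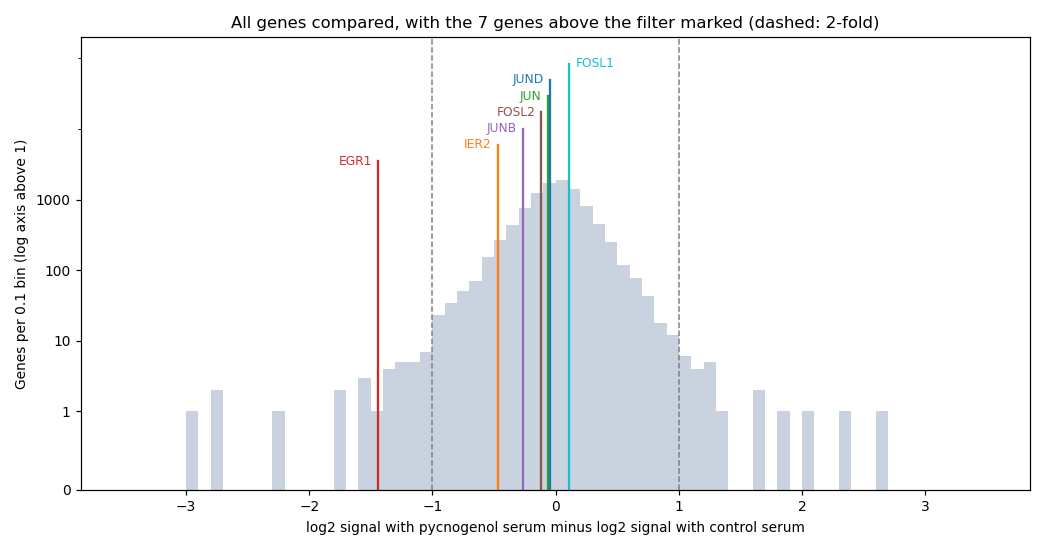
Number of genes (vertical axis, logarithmic above 1) per 0.1 bin of the log2 signal difference between pycnogenol and control serum (horizontal axis), for the 9888 genes compared, with a labelled line for each of the 7 genes of the set above the filter. EGR1 at -1.44 is past the dashed 2-fold mark in the sparse left tail, IER2 at -0.47 lies on the shoulder, and FOSL1 at 0.11 is the highest. The heights of the lines carry no value.

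Set against the range of the 5 arrays without test serum, control serum was above all 5 for FOSL2, JUNB, EGR1 and IER2 and below all 5 for FOSL1 and JUND. That is 4 and 2 of 7, where 22.5% of all genes were above and 26.6% below. The excess over the range was small for most: 0.35 for IER2, 0.091 for JUNB, 0.055 for FOSL2 and 0.041 for EGR1. Pycnogenol serum was above all 5 for none of the 7 and below all 5 for EGR1 and JUND, where 25.8% of all genes were above and 27.6% below. This way of counting was added after the signals had been seen.

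The upstream sequences of the genes are shown because SRF and cAMP response sites there are the known routes from serum and kinases to these genes, and because EGR1, IER2 and JUND, of the 7 genes above the filter, lay farthest outside the range of the other arrays with serum, while JUN and FOS form the AP-1 core. Each is the 250 bases before the RefSeq start of the gene in GRCh38.p14, on the gene's strand from 5′ to 3′. Capitals mark matches, on either strand, to the CArG box that SRF binds, the cAMP response element TGACGTCA, its core TGACG, the JUN site TGACATCA, the AP-1 site TGACTCA and the EGR sites GCGTGGGCG and GCGGGGGCG. The core lies within the full cAMP element, so those matches overlap. EGR1 is at chr5:138465229-138465478 (plus strand), IER2 at chr19:13150161-13150410 (plus), JUND at chr19:18281623-18281872 (minus), JUN at chr1:58784048-58784297 (minus) and FOS at chr14:75278578-75278827 (plus).
EGR1: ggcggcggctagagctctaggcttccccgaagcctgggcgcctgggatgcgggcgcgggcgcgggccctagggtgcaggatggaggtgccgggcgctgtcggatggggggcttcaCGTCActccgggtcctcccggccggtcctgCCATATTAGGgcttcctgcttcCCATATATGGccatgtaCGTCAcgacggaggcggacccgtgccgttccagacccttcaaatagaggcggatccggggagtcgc
IER2: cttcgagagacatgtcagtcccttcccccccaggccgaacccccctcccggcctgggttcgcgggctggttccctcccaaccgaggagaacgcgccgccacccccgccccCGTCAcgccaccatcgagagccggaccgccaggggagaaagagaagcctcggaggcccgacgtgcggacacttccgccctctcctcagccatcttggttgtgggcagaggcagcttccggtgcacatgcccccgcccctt
JUND: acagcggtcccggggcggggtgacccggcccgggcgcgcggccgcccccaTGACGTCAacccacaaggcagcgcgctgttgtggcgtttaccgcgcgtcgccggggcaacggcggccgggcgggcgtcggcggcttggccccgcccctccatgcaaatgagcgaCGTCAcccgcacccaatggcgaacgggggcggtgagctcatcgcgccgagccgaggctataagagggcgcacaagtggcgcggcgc
JUN: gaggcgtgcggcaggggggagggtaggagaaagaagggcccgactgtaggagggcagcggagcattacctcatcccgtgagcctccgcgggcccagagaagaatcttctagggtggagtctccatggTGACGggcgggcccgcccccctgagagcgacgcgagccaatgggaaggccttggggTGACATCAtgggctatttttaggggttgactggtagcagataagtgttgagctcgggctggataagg
FOS: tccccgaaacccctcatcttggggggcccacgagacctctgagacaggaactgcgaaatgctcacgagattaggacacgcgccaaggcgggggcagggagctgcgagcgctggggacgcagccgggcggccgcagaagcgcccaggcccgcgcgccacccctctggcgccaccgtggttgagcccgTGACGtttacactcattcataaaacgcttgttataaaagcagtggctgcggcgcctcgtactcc

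EGR1 alone among the 8 genes with a window used here held CArG boxes in it. It had 2, CCATATTAGG at -105 to -96 and CCATATATGG at -83 to -74 from the start, where 1.16% of 35116 promoter windows held any. JUND alone held a full TGACGTCA, at -200 to -193, which 1.65% of windows had. JUN alone held TGACATCA, at -67 to -60, which 2.37% had. No window of the 8 held TGACTCA, found in 4.2% of windows, or either EGR site, found in 0.72% and 4.72%. The core TGACG was present in all 8 windows (EGR1, IER2, JUND, JUN, FOS, FOSB, FOSL2 and JUNB), against 21.2% of all windows, and FOS had its copy at -64 to -60. These are matches of letters, not measured binding sites, and the motifs were chosen with the sequences in view. The window stops short of more distant elements, and FOS, a textbook SRF target, had no CArG box in its window. No window was used for FOSL1 or EGR3, so CArG boxes were not looked for there.

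With the single compounds none of the 7 genes reached 2-fold against the untreated culture, where 0.455% of genes did with catechin, 0.314% with epicatechin, 0.465% with taxifolin and 0.728% with resveratrol. The largest differences were -0.51 for IER2 with catechin, 0.23 for JUN with epicatechin, 0.37 for JUNB with taxifolin and -0.36 for EGR1 with resveratrol. For JUN with epicatechin the direction depends on the probe set, since the mean of all 4 gave -0.099. The medians over the 7 genes were -0.092, 0.093, 0.0041 and -0.13 in the same order. By the brightest probe sets, EGR1 and IER2 were lower than untreated with all 4 compounds, and JUND was higher with all 4. However, EGR1 with epicatechin was at 0.030 under quantile normalization. The second EGR1 probe set, with a mean under the filter, gave 0.13 with catechin and 0.21 with epicatechin. It gave -0.097 with taxifolin and -0.46 with resveratrol. JUND was lower with catechin and epicatechin by the mean of all its probe sets. With the mean of the other arrays without test serum as reference in place of the untreated one, none of these 3 genes kept its direction with all 4 compounds. Over all genes 14.7% were lower and 25.9% higher with all 4, and the comparisons share the untreated array. The EGR1 values were -0.16, -0.044, -0.31 and -0.36, and those of IER2 were -0.51, -0.044, -0.21 and -0.31, in the order catechin, epicatechin, taxifolin, resveratrol. FOSL1 was lower with resveratrol, at -0.26, and between -0.016 and 0.12 with the flavonoids.

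**Figure D5:**
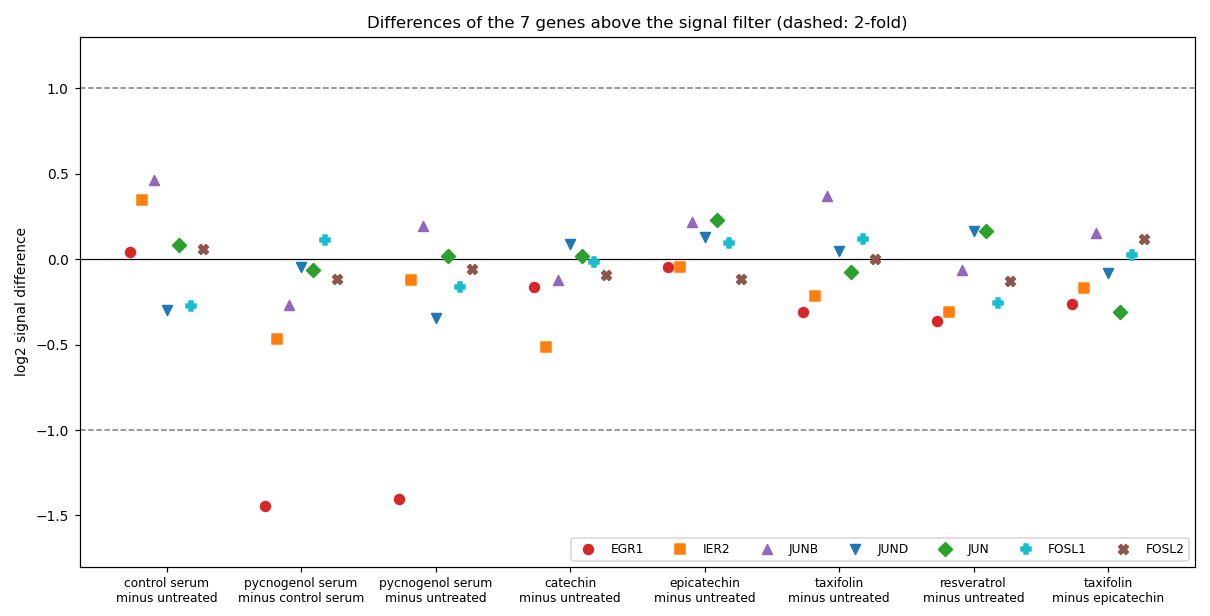
log2 signal difference (vertical axis) of the 7 genes above the filter in 8 comparisons (horizontal axis), 1 symbol per gene. Every compound comparison keeps all 7 genes between the dashed 2-fold lines, with the lowest value -0.51 for IER2 with catechin, and EGR1 passes the lower line in both comparisons of pycnogenol serum, at -1.44 and -1.40.

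Epicatechin and taxifolin were given at the same concentration, 6.25 ng/ml, and were the 1 pair of compounds that could be compared at matched dose and time. Taxifolin carries a carbonyl group in its central ring that epicatechin lacks. None of the 7 genes differed by 2-fold between them, where 0.324% of all genes did. The differences of taxifolin from epicatechin were -0.31 for JUN, -0.26 for EGR1, -0.17 for IER2, 0.15 for JUNB, 0.12 for FOSL2, -0.081 for JUND and 0.023 for FOSL1. The sign for JUN again turns with the probe set, one of which gave 0.27, and that for JUND with the mean of its probe sets, 0.57. Without replicates no interval can be put on them, so they do not show that both compounds act alike. Catechin, a stereoisomer of epicatechin, was given at 11.25 ng/ml, so its IER2 signal of 4887 and that of epicatechin, 6772, stand at different doses.

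Other genes of the AP-1 system were described from lists chosen with earlier results known, and listed genes that could not be matched were not analysed here. Of 13 further AP-1 dimer partners above the filter (ATF, MAF, CREB and related genes), 11 lay below 0 with control serum against untreated and 1 was lower by 2-fold, where 1.2% of all genes were past it in either direction. The median was -0.15, against 0.0076 over all genes, of which 48.7% lay below 0. The 1 lower gene was JDP2, which encodes a repressor that dimerises with JUN and read 2584 untreated, 1249 with control serum and 1101 with pycnogenol serum. Between the serum arrays 10 of 13 lay below 0, against 48.4% of all genes, with the same median of -0.15. The 1 gene past 2-fold there, against 0.536% of all genes, was ATF3, a stress-induced partner of JUN, with a signal of 1444 under control serum and 722 under pycnogenol serum. DDIT3 (CHOP), a stress factor of the same zipper class, read 2052 and 1026 and fell just short of 2-fold. ATF4 was at -0.54 there. Pycnogenol serum against untreated put 3 of the 13 lower by 2-fold, DDIT3 at -1.87, JDP2 at -1.23 and ATF3, where 2.24% of all genes were past it in either direction. With the single compounds none of the 13 was past 2-fold, where 0.314% to 0.728% of all genes were.

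Among the factors that act on the FOS and EGR1 promoters, SRF read 769 in the untreated culture, 1231 with control serum and 1205 with pycnogenol serum, which put it 0.68 and 0.65 above untreated. Its cofactor MRTFA read 401, 624 and 732. ELK1 read 2018 in the untreated culture and less in each of the other 6, from 902 with resveratrol, at -1.16, to 1491 with control serum. It was the 1 gene of 6 in this list past 2-fold in any of the 8 comparisons, with resveratrol, where 0.728% of all genes were. Over all genes 14.7% were lower than untreated with all 4 compounds, and these comparisons share the untreated array. None of the 13 RAS and MAP kinase pathway genes above the filter was past 2-fold in any comparison, where 0.314% to 2.24% of all genes were. MAP2K1, the kinase upstream of ERK, read 4144 untreated, 6705 with control serum and 4345 with pycnogenol serum.

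Of 25 other immediate early genes above the filter, 2 were higher by 2-fold with control serum against untreated, the endothelin gene EDN1 at 1.85 and RHOB, a small GTPase gene, at 1.19, and none was lower, where 1.2% of all genes were past 2-fold. CSRNP1 was at 0.92. Between the serum arrays 17 of 25 lay below 0, against 48.4% of all genes, with a median of -0.13. The 1 gene past 2-fold there was KLF4, a zinc finger factor, at -1.33, where 0.536% of all genes were. DUSP1, a phosphatase that turns MAP kinases off, was at -0.91 and ERRFI1, a brake on EGF receptor signalling, at -0.69. Pycnogenol serum against untreated held the most calls, 4 of 25 against 2.24% of all genes: EDN1 at 1.72, RHOB at 1.29 and CSRNP1 at 1.26 were higher, and KLF4 at -2.19 was lower. With the compounds none of the 25 was past 2-fold, where 0.314% to 0.728% of all genes were. CSRNP1 with taxifolin had the largest difference, 0.93.

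Genes known as targets of these factors did not share a direction. Of 18 AP-1 targets above the filter, 8 lay above and 10 below 0 with control serum against untreated, where 48.7% of all genes lay below. The split was the same with pycnogenol against control serum, where 48.4% lay below. None of the 18 was past 2-fold in either, where 1.2% and 0.536% of all genes were. Pycnogenol serum against untreated put 1 of the 18 higher by 2-fold, IL11 at 1.19, and 1 lower, VEGFA at -1.31, where 2.24% of all genes were past 2-fold. With control serum the gelatinase gene MMP9 was at 0.90, IL11 at 0.86 and VEGFA at -0.75. The untreated MMP9 signal, 238, is under the filter, and catechin against untreated put MMP9 at 0.84. Between the serum arrays LIF was at -0.71, VEGFA at -0.56 and CXCL8 at -0.36. Of 7 EGR1 targets above the filter, none was past 2-fold in any of the 8 comparisons, where 0.314% to 2.24% of all genes were. Between the serum arrays, where EGR1 was lower by 2-fold on 1 of its 3 probe sets, 5 of the 7 targets lay above 0 and 2 below. Over all genes 48.4% lay below. The median of the targets was 0.11, against 0.0082 over all genes. Their largest differences were GDF15 at -0.47, PDGFA at 0.47 and F3, tissue factor, at -0.44. Whether these targets followed EGR1 was not tested.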

How the data were processed

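Signal intensities of 54675 probe sets on 7 Affymetrix U133 Plus 2.0 arrays were analysed as deposited. They were computed by the authors with MAS5, per the submitters' processing notes, and its version is not given in the sources used here. Each array's mean, with the top and bottom 2% of signals trimmed off, came to 1000. The 62 control probe sets were kept apart. Of the others, 41091 were assigned to 1 gene by the platform annotation, with symbols updated through RefSeq (GRCh38.p14), and 1801 that named several genes were left out. Signals were raised to the 25th percentile of all values (34.9) and log2-transformed. The brightest probe set by mean log2 signal stood for a gene, and the upper part of the genes, from the median gene mean upwards, was compared. No test was possible with 1 array per group, so the precision of a difference is unknown. Named were all 10 genes and the 3 genes of each of 11 other lists with the largest difference in a comparison (those of interest to the text are printed). Also named were the 3 genes closest in profile to any of the 10 that passed the filter and spanned 2-fold, which EGR1 alone did. The genes, lists, comparisons and alternatives were chosen with earlier results of these data known. The 4 lists of cell markers covered mesenchymal, epithelial, blood and endothelial cells. Python 3.11.15, numpy 2.4.6, pandas 2.3.3 and matplotlib 3.10.9 were used. Alternatives were quantile normalization, median centring, no floor, a floor at the 40th percentile, the mean of all probe sets, no _x_at or _s_at probe sets, thresholds of 1.5-fold and 3-fold, and the mean of the other arrays without test serum as reference.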

Additional observations from a re-analysis of the deposited data

How the results depend on the processing

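No paired analysis was possible because each group held 1 array. The EGR1 call at 2-fold rests on 1 probe set. The count of genes past 2-fold was 1 for pycnogenol serum against control serum and 1 against untreated, and it was 0 in both with the mean of all probe sets, without _x_at and _s_at probe sets (which leaves EGR1 and JUND unread) and at 3-fold. Under the same changes of probe sets, the count with both serum arrays on 1 side of the other 5 went from 1 to 0, and that of pycnogenol serum outside their range from 2 to 1 and 0. The other alternatives run left EGR1 between -1.44 and -1.43 between the serum arrays. Of 142 counts and medians under alternatives, 132 were kept. A count was kept within 1.5 times and a median within the SD of differences over all genes (0.24 to 0.38). This rule is loose, since every main median was smaller in size than that SD. A kept median can thus have changed sign. Averaging each gene's probe sets gave medians against untreated of -0.042 for control serum (main value 0.059) and -0.071 for epicatechin (main value 0.093). Both were counted as kept. Counts of 0 that stayed 0 were kept too, so the 132 say little about direction. Under quantile normalization 4 small differences changed sign: FOSL2 with taxifolin (-0.014), EGR1 with epicatechin (0.030), and JUN with catechin (-0.0023) and with pycnogenol serum against untreated (-0.039). With the mean of the other arrays as reference, IER2 was above 0 with epicatechin (0.22), taxifolin (0.0028) and pycnogenol serum (0.094), EGR1 with epicatechin (0.16) and catechin (0.017), and FOSL2 with pycnogenol serum (0.0093). JUND was then below 0 with taxifolin (-0.048), as was JUN with catechin (-0.064) and pycnogenol serum (-0.048). The range counts of each serum array were added after the data had been seen. The background of the arrays limits what can be read for FOS, FOSB and EGR3.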
